A study of Mus musculus with 6 samples.

Results

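The 9 genes followed here are the homeobox genes Six2, Six3, Six4 and Six5, the Eya genes Eya1, Eya2, Eya3 and Eya4, and Dach1. They were taken by symbol from a written list, and all 9 were found among the 23420 gene symbols of the deposited count tables. The libraries came from lacrimal gland epithelium of E14.5 mouse embryos of mixed strain, which was frozen, cut out by laser capture and sequenced after RNA amplification. The 3 control libraries are labelled with the genotype Le-Cre, and since the study also used Le-Cre animals heterozygous for the 3 ETS alleles as controls, it is not settled here whether they carried the transgene alone. The 3 Pea3 TKO libraries carried Le-cre, Pea3-/-, Ermfl/fl and Er81fl/fl, so that Pea3 (Etv4) was missing from every cell of the embryo. Erm (Etv5) and Er81 (Etv1) were removed where Le-Cre acts, and the study names the conjunctival epithelium and the lacrimal gland as sites of its expression. How many embryos stood behind a library is not given in the sources used here.

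Six-family proteins bind DNA through a homeodomain, Eya proteins are coactivators with a phosphatase domain that are recruited by them, and Dach proteins are nuclear factors related to Ski that mostly act as corepressors. Together with Pax genes they form a regulatory network first described in the fly eye, which is used again in the ear, kidney, muscle and cranial placodes of vertebrates. The comparison asks how the levels of these genes changed in the lacrimal gland bud when the Pea3 family of ETS transcription factors, which act downstream of FGF signaling, was removed.

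Total counts ran from 14194775 to 17860140 per library. The targeted genes followed the labels, since Etv4 read 129 to 184 CPM (counts per 1000000 counts of a library, scaled by TMM) in controls and 10.9 to 28.4 in Pea3 TKO, Etv5 read 961 to 1202 against 88.2 to 177, and Etv1 read 28.7 to 33.9 against 9.21 to 9.98. The epithelial marker Epcam read 1201 to 1500 CPM over all 6 libraries. It was not typical of its list, since 7 of the 9 epithelial markers rose in Pea3 TKO. Summed, the 9 read 3067 to 3818 CPM in controls and 5506 to 6420 in Pea3 TKO. Y-linked transcripts summed to 136 to 175 CPM in the controls and 139 in Pea3 TKO replicate 3, but to 0.445 and 0.210 in Pea3 TKO replicates 1 and 2. Pea3 TKO replicates 1 and 2 also carried the most mesenchymal transcripts, with 587 and 769 CPM summed over 13 markers, against 167 in replicate 3 and 228 to 323 in the controls. Foxc2 (102 to 132 CPM) and Vim (84.7 to 90.4 CPM) made up most of this sum in the controls. The same 2 genes made up most of it in Pea3 TKO replicate 3, but not in replicates 1 and 2. In bulk tissue, fewer cells of a type and less RNA per cell cannot be told apart.

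Pea3 TKO buds held 3.91-fold less Six2 and 5.78-fold more Dach1 than controls. Six4 fell by 0.59 on the log2 scale, a call that was lost in 5 of the 14 alternative settings described below. Eya2 and Eya3, the Eya genes with the highest levels, and Six5 did not pass the test, and Eya1, Eya4 and Six3 were expressed at low levels or near the limit of detection. Of the 9 genes, 7 passed the filter on low counts, and 3 passed an adjusted p threshold of 0.05 in the edgeR quasi-likelihood test, 2 of them lower and 1 higher in Pea3 TKO. Among all 13087 genes tested, 25.0% passed, 11.3% lower and 13.6% higher. Groups did not overlap for 4 of the 7 tested genes (Six2, Six4, Eya1 and Dach1), beside 43.9% of all tested genes. They overlapped for Six3 and Eya4, which were not tested. The median log2 fold change over the 7 tested genes was -0.26, against 0.01 over all tested genes.

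**Figure D1:**
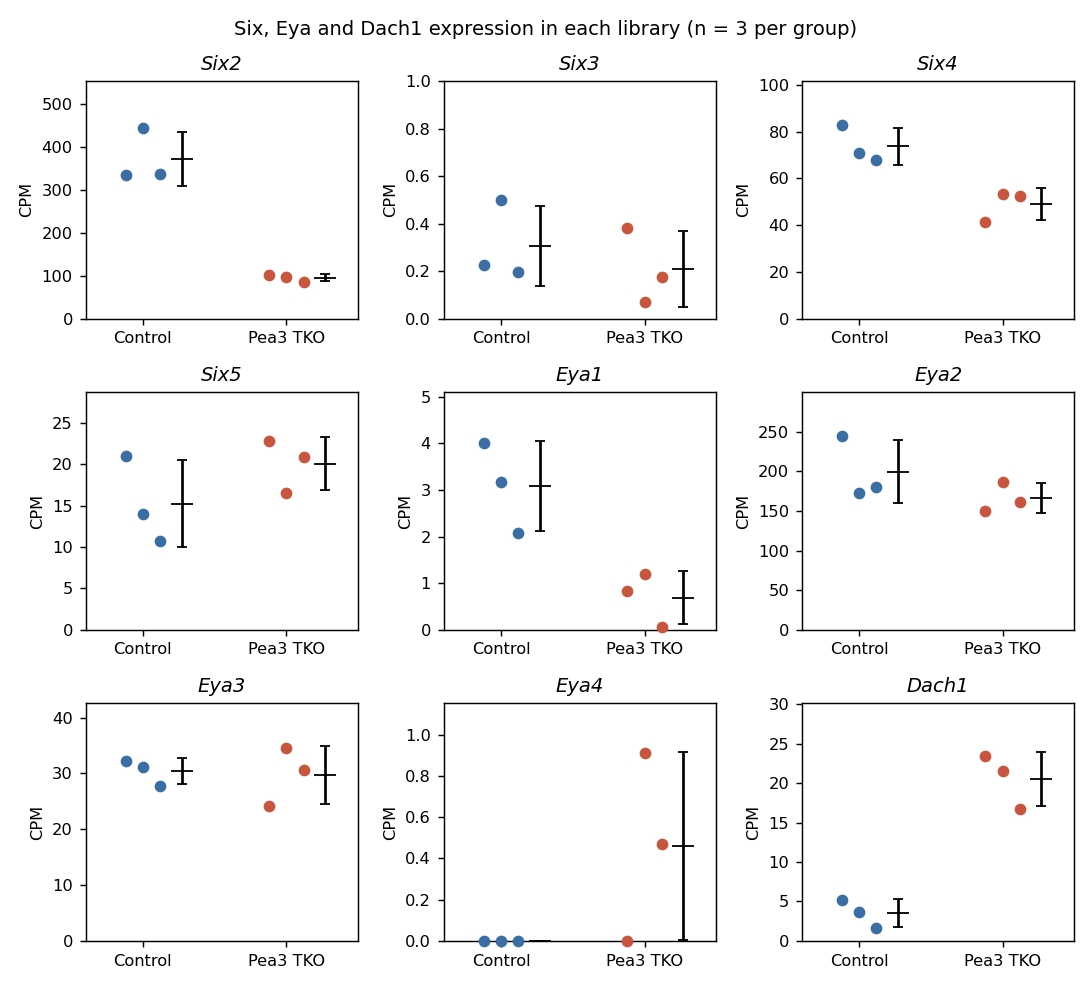
Expression in CPM (vertical axes, each starting at 0) of the 9 genes in the 3 control and 3 Pea3 TKO libraries, with 1 point per library and the mean ± SD beside it. The Pea3 TKO points of Six2, Six4 and Eya1 lie below every control point and those of Dach1 above every control point, while the groups overlap for Six3, Six5, Eya2, Eya3 and Eya4.

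Six2, a homeodomain factor known for keeping nephron progenitors undifferentiated in the kidney, lies on chromosome 17 from 85684277 to 85688274 (GRCm38). Its level was 334, 442 and 336 CPM in the control libraries, in the order of their replicate numbers, and 101, 97.5 and 85.9 CPM in Pea3 TKO. The lowest control library thus stood more than 3 times above the highest Pea3 TKO library. The log2 fold change was -1.97 (standard error 0.14, 95% interval -2.29 to -1.64, edgeR adjusted p = 3.9e-05), or a decrease between 3.12-fold and 4.89-fold by that interval. Within Pea3 TKO the coefficient of variation was 8.39%, against 16.8% in controls. In the 4 libraries with Y-linked transcripts (3 controls and Pea3 TKO replicate 3), a setting chosen after the data had been seen, the log2 fold change was -2.10 and the edgeR adjusted p 0.0071.

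Six3, which directs forebrain and eye formation, is the neighbour of Six2 on chromosome 17, from 85613608 to 85629302 on the opposite strand, with 55.0 kb between them. It was counted 4, 8 and 3 times in the controls and 6, 1 and 3 times in Pea3 TKO. These values overlap and lie close to the limit that 3 counts set in a library, 0.17 to 0.21 CPM. Summed over a group they correspond to 0.305 CPM (exact Poisson 95% interval 0.171 to 0.503) in controls and 0.212 (0.102 to 0.391) in Pea3 TKO, intervals that cover counting error only. No difference was detectable at this depth. Annotated antisense genes share 1.9% (Six3os1) and 3.1% (Gm28528) of the Six3 exon bases, and since the strand setting of the counting is not stated, reads there cannot be assigned to a strand.

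Six4, a factor that acts with its paralogs in muscle, kidney and cranial ganglia, lies on chromosome 12 from 73099609 to 73113456. It read 82.6, 70.8 and 67.8 CPM in controls and 41.3, 53.4 and 52.5 in Pea3 TKO. The groups were separate, but the gap between the lowest control and the highest Pea3 TKO library was small beside that of Six2. The log2 fold change was -0.59 (standard error 0.15, 95% interval -0.93 to -0.24, edgeR adjusted p = 0.021). This call was lost when control replicate 1 (edgeR adjusted p = 0.052), control replicate 2 (0.055) or Pea3 TKO replicate 1 (0.061) was left out. It was also lost with Y-linked expression as a covariate (edgeR adjusted p = 0.26) and in the 4 libraries with Y-linked transcripts (0.22), at log2 fold changes of -0.48 in both cases.

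Six5, which lies next to the myotonic dystrophy kinase gene and is expressed broadly, is found on chromosome 7 from 19094594 to 19098549. It read 21.03, 13.96 and 10.73 CPM in controls and 22.8, 16.6 and 20.9 in Pea3 TKO. The groups overlapped. The log2 fold change of 0.40 (95% interval -0.23 to 1.02, edgeR adjusted p = 0.34) allows anything from a ratio of 0.853 to one of 2.03 between Pea3 TKO and control.

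**Figure D2:**
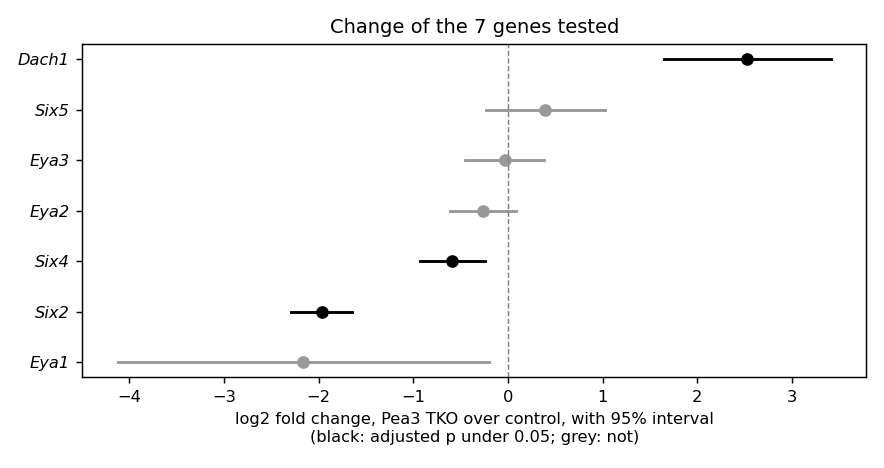
Log2 fold change of Pea3 TKO over control (horizontal axis) with its 95% interval for the 7 genes tested, in black where the edgeR adjusted p was under 0.05 and in grey otherwise. Dach1 lies at 2.53 and Six2 at -1.97, the intervals of Six5, Eya3 and Eya2 include 0, and the interval of Eya1 runs from -4.12 to -0.20.

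Eya2 was the main Eya gene in these buds. It lies on chromosome 2 from 165595032 to 165771727 and read 245, 173 and 180 CPM in controls and 149, 187 and 162 in Pea3 TKO. The groups overlapped, as Pea3 TKO replicate 2 stood above control replicates 2 and 3. The log2 fold change was -0.26 (standard error 0.16, edgeR adjusted p = 0.25), and its 95% interval covers ratios from 0.654 to 1.06, so that an equal level in the groups lies inside it.

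Eya3, a broadly expressed member of the family on chromosome 4 from 132638987 to 132724765, was the steadiest of the genes in controls, with a coefficient of variation of 7.73%. It read 32.3, 31.1 and 27.8 CPM in controls and 24.2, 34.5 and 30.5 in Pea3 TKO. Its log2 fold change of -0.03 (standard error 0.19, edgeR adjusted p = 0.92) turned to 0.004 with upper-quartile scaling, so no direction was given by these data. The 95% interval covers ratios from 0.733 to 1.31.

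Eya1, the gene mutated in branchio-oto-renal syndrome, lies on chromosome 1 from 14168954 to 14310235 and was expressed at a low level. It was counted 71, 51 and 32 times in controls and 13, 17 and 1 times in Pea3 TKO, or 4.002, 3.178 and 2.081 CPM against 0.826, 1.19 and 0.0587. Every Pea3 TKO library lay below every control, and the log2 fold change was -2.16. With a standard error of 0.88 the edgeR adjusted p was 0.10, so Eya1 did not pass the test, and it passed the filter on low counts through its control libraries. Across the 14 alternative settings its adjusted p ranged from 0.056 to 0.21. Leaving out 1 library at a time moved the log2 fold change between -2.79 (without Pea3 TKO replicate 2) and -1.61 (without Pea3 TKO replicate 3, the library with 1 count). It was -5.53 in the 4 libraries with Y-linked transcripts, where replicate 3 was the only Pea3 TKO library.

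Eya4, which is linked to hearing loss and heart muscle disease, lies on chromosome 10 from 23102963 to 23350786. It was not counted in any control and was counted 0, 13 and 8 times in Pea3 TKO replicates 1 to 3. Over the pooled libraries this is 0.446 CPM in Pea3 TKO (exact Poisson 95% interval 0.276 to 0.682), and 0 in controls with an upper limit of 0.0750. Replicate 2 gave 13 of the 21 counts. Replicate 1 was at 0 like the controls, so the groups overlapped. Eya4 did not pass the filter on low counts, and with that filter removed its edgeR adjusted p was 0.11.

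Dach1, a corepressor that is expressed in limb, kidney and eye tissues, lies on chromosome 14 from 97786853 to 98169765. It was counted 93, 59 and 26 times in controls and 368, 308 and 285 times in Pea3 TKO, or 5.24, 3.68 and 1.69 CPM against 23.4, 21.5 and 16.7. The lowest Pea3 TKO library stood above the highest control. The log2 fold change was 2.53 (standard error 0.39, 95% interval 1.65 to 3.41, edgeR adjusted p = 0.0019), and ordered from the largest increase Dach1 was number 449 of the 13087 genes tested. Its control values were spread, with a coefficient of variation of 50.3% against 16.7% in Pea3 TKO. Leaving out each library in turn gave log2 fold changes from 2.20 (without control replicate 3) to 2.93 (without control replicate 1), all with an edgeR adjusted p of at most 0.012. With Y-linked expression as a covariate the log2 fold change was 2.27 (edgeR adjusted p = 0.033), and in the 4 libraries with Y-linked transcripts it was 2.25 with an edgeR adjusted p of 0.086, so the call was lost there.

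Its paralog Dach2, on chromosome X from 113297510 to 113836386, read 6.76, 5.67 and 4.16 CPM in controls and 5.33, 3.85 and 2.41 in Pea3 TKO. These groups overlapped, and the log2 fold change was -0.52 (standard error 0.45, edgeR adjusted p = 0.44). The ratio of Dach1 to Dach2, which does not depend on the scaling of a library, was -0.37, -0.63 and -1.30 on the log2 scale in controls and 2.13, 2.49 and 2.80 in Pea3 TKO. Dach1 counts were thus below those of Dach2 in every control and above them in every Pea3 TKO library.

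The changes were set beside transcripts of other cell types. Among all tested genes, 13.6% rose and 11.3% fell. The 7 conjunctival and epidermal markers (Krt5, Krt14, Krt15, Trp63, Sfn, Evpl and Krt7) summed to 1632, 616 and 555 CPM in controls and 7632, 6588 and 5267 in Pea3 TKO, and 6 of the 7 rose. Ordered by this sum, the 6 libraries stood in the same order as by Dach1. The part of these cells in the level of Dach1 was not tested. Of the 13 mesenchymal markers, Dcn and Lum passed as higher, Foxc2 as lower, and 10 did not pass the test. Dcn read 69.7, 73.6 and 2.41 CPM in Pea3 TKO against at most 4.42 in controls, and Lum 60.5, 79.9 and 2.06 against at most 8.39. Their groups thus overlapped, and the high values were those of Pea3 TKO replicates 1 and 2. Col1a1, Col1a2 and Col3a1, which did not pass, were also highest in these replicates. By replicate, the mesenchymal sum was 228, 255 and 323 CPM in controls and 587, 769 and 167 in Pea3 TKO. Foxc2 and Vim made up most of it except in Pea3 TKO replicates 1 and 2. Dach1 read 5.24, 3.68 and 1.69 CPM in controls and 23.4, 21.5 and 16.7 in Pea3 TKO. The part of mesenchymal cells in the level of Dach1 was not tested. Muscle, a known site of Six-Eya expression, was nearly absent: Myf5, Pax3 and Pax7 were at 0 in all libraries, which allows at most 0.17 to 0.21 CPM. The 10 muscle markers summed to 0.451 to 4.99 CPM in controls and 0.381 to 3.94 in Pea3 TKO. Myog was counted 0, 12 and 3 times and Myod1 0, 8 and 0 times in Pea3 TKO, and neither was counted in controls. In the other direction, Myh3 was counted 0, 11 and 22 times in controls and not in Pea3 TKO, and Actc1 was lower in every Pea3 TKO library. The part of muscle cells in the Eya4 counts was not tested. The neural retina markers Rax, Atoh7 and Pou4f2 were at 0 as well, and 5 such markers summed to at most 0.499 CPM. Lens crystallins were present, with 7 lens markers at 115 to 789 CPM in controls and 156 to 286 in Pea3 TKO, and none of the 5 tested passed. The 9 epithelial markers summed to 3067 to 3818 CPM in controls and 5506 to 6420 in Pea3 TKO, and 7 of them rose, Pax6 among them, while Epcam and Grhl2 did not pass the test. Their part in the decrease of Six2 was not tested.

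Promoter sequences are shown for Six2 and Dach1, the members with the largest called changes in each direction, because the proteins removed in Pea3 TKO bind ETS sites built on the letters GGAA. The sequences are those of RefSeq on GRCm38.p6, on the strand of the gene, from up to 250 bases before the RefSeq start with bases that GENCODE M21 places in an exon of the gene left out of the print. Capitals mark GGAA or its reverse complement TTCC, and motifs were sought on both strands of the full 250 bases.
Six2, chr17:85688275-85688504, minus strand: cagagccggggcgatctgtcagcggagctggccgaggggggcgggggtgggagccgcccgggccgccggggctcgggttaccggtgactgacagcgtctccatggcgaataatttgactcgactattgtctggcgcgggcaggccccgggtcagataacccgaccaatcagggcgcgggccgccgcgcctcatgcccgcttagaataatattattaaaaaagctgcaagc
Dach1, chr14:98169766-98170015, minus strand: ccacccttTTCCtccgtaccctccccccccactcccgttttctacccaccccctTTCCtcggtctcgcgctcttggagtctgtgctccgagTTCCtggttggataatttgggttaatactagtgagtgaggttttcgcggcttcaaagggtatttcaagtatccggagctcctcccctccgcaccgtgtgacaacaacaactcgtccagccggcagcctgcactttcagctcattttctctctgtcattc
The Six2 window held no GGAA on either strand, and the Dach1 window held 3. Over all 32851 RefSeq windows of 250 bases, 93.45% held at least 1 GGAA and the median number was 3. Neither window held the longer forms CGGAAG (13.59% of all windows) or AGGAAG (29.48%), each of which contains GGAA. Windows were at hand for 7 of the 9 genes, and among them the only CGGAAG was in the Eya3 window, at bases that GENCODE M21 places inside the gene. The only match to TCAGGTTTC, the MEF3 site that Six-family proteins bind in muscle genes and that overlaps none of the other motifs, lay in 1 of the Six4 windows, also inside the gene by GENCODE M21, against 0.39% of all windows. These counts describe the letters in short windows and say nothing of binding there or elsewhere.

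Levels can be compared between genes only per length, so CPM was divided by the length of all annotated exons in kb. In controls the order was Six2 (175 ± 29.3 CPM per kb, SD, n = 3), Eya2 (67.3 ± 13.4), Six4 (6.79 ± 0.72), Eya3 (5.38 ± 0.42), Six5 (5.07 ± 1.75), Dach1 (0.483 ± 0.243), Eya1 (0.395 ± 0.123), Six3 (0.0563 ± 0.0307) and Eya4 (0). The library values of Eya3 and Six5 overlapped, as did those of Dach1 and Eya1, and all other neighbours in this order were separate. In Pea3 TKO the first places were exchanged, with Eya2 at 56.0 ± 6.37 and Six2 at 44.8 ± 3.76, whose library values did not overlap. Six5 (6.68 ± 1.06), Eya3 (5.27 ± 0.92) and Six4 (4.52 ± 0.62) followed with overlapping neighbours, then Dach1 at 2.81 ± 0.47, separate from Six4 above and from Eya1 (0.0885 ± 0.0739) below.

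Six2 made up most of the summed per-length level of Six2 to Six5, and its share fell from 91.5%, 94.9% and 94.1% in controls to 80.6%, 81.5% and 77.5% in Pea3 TKO. The shares of Six5 (2.76 ± 1.12% in controls and 11.9 ± 1.90% in Pea3 TKO) and Six4 (3.70 ± 0.73% and 8.13 ± 1.5%) were larger in every Pea3 TKO library, although the level of Six5 did not pass the test and that of Six4 fell. The summed level itself was 187 ± 28.8 CPM per kb in controls and 56.0 ± 3.44 in Pea3 TKO. Of the summed level of Eya1 to Eya4, Eya2 made up 90.8% to 93.0% in controls and 90.8% to 92.0% in Pea3 TKO. Their summed level was 73.0 ± 13.7 CPM per kb in controls and 61.4 ± 7.33 in Pea3 TKO, with overlapping values.

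**Figure D3:**
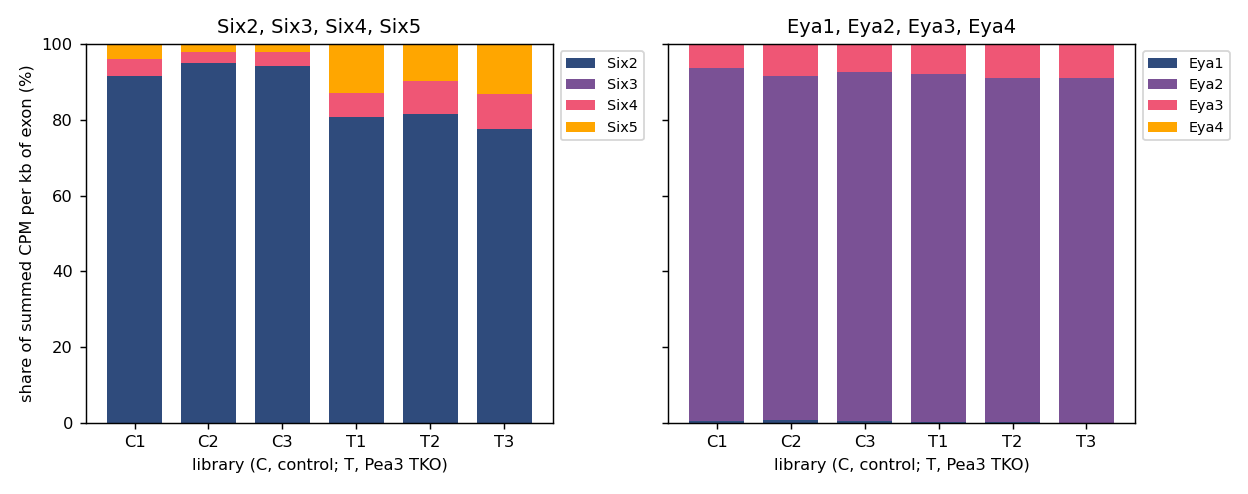
Share of each gene (colour) in the summed CPM per kb of exon of Six2 to Six5 (left) and Eya1 to Eya4 (right), in percent (vertical axis), for control libraries C1 to C3 and Pea3 TKO libraries T1 to T3. Six2 takes 91.5% to 94.9% in controls and 77.5% to 81.5% in Pea3 TKO, while Eya2 stays between 90.8% and 93.0% in all 6 libraries, and the shares of Six3, Eya1 and Eya4 are too small to see.

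Ratios within a library compared the changes of the genes with each other. The log2 ratio of Six2 to Six4 was 2.01, 2.64 and 2.31 in controls and 1.29, 0.87 and 0.71 in Pea3 TKO, a difference of -1.36, and was lower in every Pea3 TKO library than in any control. The ratio of Six2 to Eya2 moved from 0.45, 1.36 and 0.90 to -0.56, -0.94 and -0.91. That of Six4 to Eya2 moved less, from -1.57, -1.29 and -1.41 to -1.86, -1.80 and -1.62. Of 8 such ratios, 7 were separate between the groups and reached the smallest two-sided exact permutation p that 3 against 3 libraries allow, 0.10 (0.11 after Benjamini-Hochberg adjustment over the 8), so none could pass 0.05. The ratio of Eya2 to Eya3 overlapped between the groups (exact permutation p = 0.20).

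Other genes of the network were read from 3 lists of 39 genes in all, of which 26 were tested. Of these, 7 rose and 3 fell, while among all 13087 tested genes 13.6% rose and 11.3% fell. Among the called genes, Gdnf and Osr1 passed the filter on low counts through Pea3 TKO libraries and Sobp through control libraries. Among the Pax genes, Pax6, the eye and lacrimal progenitor factor, read 240, 206 and 184 CPM in controls and 486, 439 and 427 in Pea3 TKO (log2 fold change 1.10, standard error 0.13, edgeR adjusted p = 5.0e-04), and remained past the threshold in all 14 alternative settings. Pax2, Pax3, Pax5 and Pax7 were at 0 in every library. Six6, the eye-field paralog of Six3, was at 0 too.

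Of the 17 tested cofactors and corepressors, 1 rose, 2 fell and 14 did not pass, with a median log2 fold change of -0.15. Among all tested genes, 25.0% passed and the median was 0.01. The Groucho corepressor gene Tle3 read 49.0, 14.2 and 33.4 CPM in controls and 12.2, 6.15 and 10.8 in Pea3 TKO (edgeR adjusted p = 0.017). Its paralog Tle4 went the other way, from 97.5, 93.2 and 116 to 140, 165 and 154 (edgeR adjusted p = 0.0099). Sobp, the sine oculis binding protein gene, was counted 60, 79 and 108 times in controls and 0, 7 and 5 times in Pea3 TKO (log2 fold change -4.26, standard error 0.91, edgeR adjusted p = 0.0091), and passed the filter on low counts through its control libraries. Ski, Skil, Ncor1, Sin3a and Hdac3, which encode corepressors that Dach1 is known to work with or their relatives, had log2 fold changes between -0.29 and 0.09 and did not pass. The calls of Tle3, Tle4 and Sobp were lost with Y-linked expression as a covariate (edgeR adjusted p = 0.24, 0.099 and 0.15), at log2 fold changes of -1.51, 0.58 and -4.15 beside -1.73, 0.58 and -4.26 without it. That of Tle3 was also lost without Pea3 TKO replicate 2 and that of Tle4 without control replicate 2.

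Of 8 tested genes that have been described as targets of Six-Eya complexes in other tissues, 5 rose, 1 fell and 2 did not pass, with a median log2 fold change of 1.08. Among all tested genes, 13.6% rose, 11.3% fell and the median was 0.01. The list was not split by the direction of regulation described, so its median gives no direction of Six-Eya activity. Gdnf, the kidney signal that Six-Eya complexes promote in metanephric mesenchyme, was counted 2, 2 and 0 times in controls and 41, 25 and 51 times in Pea3 TKO (edgeR adjusted p = 0.0066), and passed the filter on low counts through its Pea3 TKO libraries. Osr1, counted 15, 6 and 13 times in controls and 34, 65 and 48 times in Pea3 TKO, also needed its Pea3 TKO libraries to pass that filter. The number of genes that rose and the median of this list thus depend in part on the filter. Wnt4, a signal for epithelial conversion in the kidney, read 127, 71.6 and 52.9 CPM in controls and 345, 223 and 174 in Pea3 TKO (edgeR adjusted p = 0.0080). Ezr, which encodes the membrane linker ezrin, read 457, 361 and 378 against 626, 622 and 561 (edgeR adjusted p = 0.0081). Myc was the gene that fell, from 267, 247 and 234 to 102, 128 and 166 (edgeR adjusted p = 0.0044). The cell cycle gene Ccnd1 (edgeR adjusted p = 0.013) and Osr1 (0.040) were the other increases, but the call of Osr1 was lost in 10 of the 14 settings, among them those that left out any 1 library, and that of Ccnd1 without control replicate 3. With Y-linked expression as a covariate, Gdnf and Ccnd1 passed and Wnt4, Ezr, Myc and Osr1 did not (edgeR adjusted p = 0.16, 0.12, 0.10 and 0.24). Their log2 fold changes were then 1.10, 0.51, -0.59 and 2.04, beside 1.56, 0.60, -0.92 and 2.19 without the covariate.

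**Figure D4:**
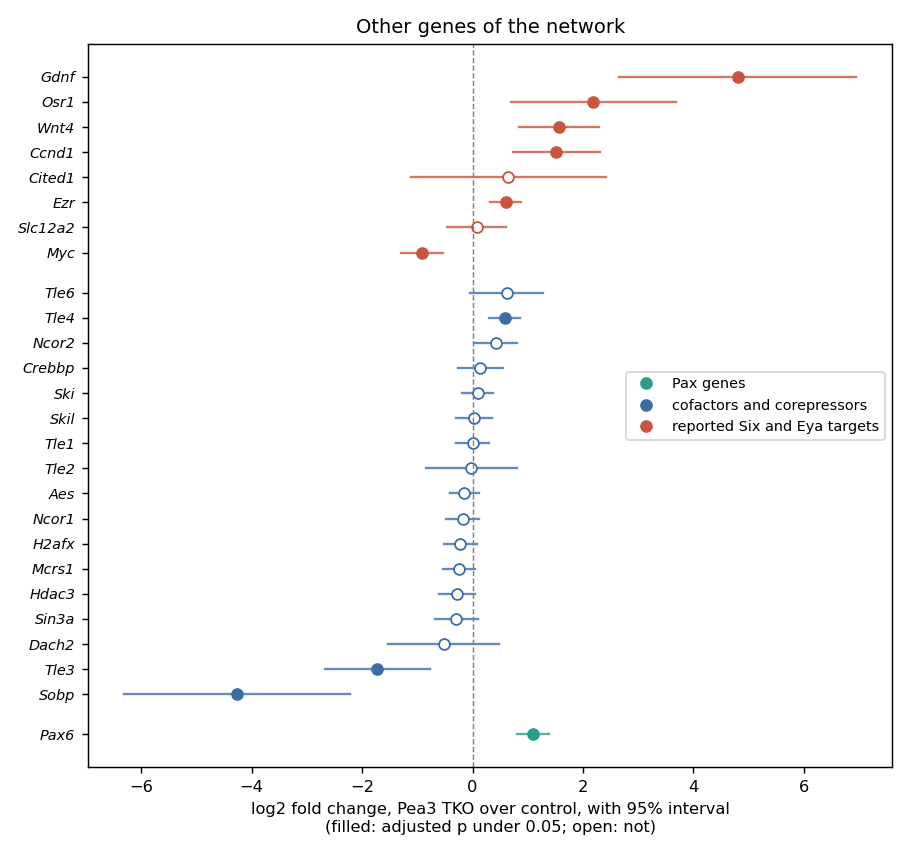
Log2 fold change of Pea3 TKO over control (horizontal axis) with its 95% interval for the 26 tested genes of 3 lists, coloured by list, with filled points for an edgeR adjusted p under 0.05. Reported targets of Six-Eya complexes lie mostly to the right, with Gdnf at 4.80 and Myc at -0.92, and most cofactors lie near 0 apart from Sobp at -4.26, Tle3 at -1.73 and Tle4 at 0.58.

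The genes with profiles most like each called member over the 6 libraries were found from the root mean square difference of log2(CPM + 0.5), centred on the mean of each gene, among 12576 tested genes with a mean of at least 1 CPM. For Six2 they were Capn6 (0.18), Sncaip (0.19) and Lingo3 (0.20), which fell with log2 fold changes of -1.74, -1.71 and -2.07. For Six4 they were Ctnnbip1, an inhibitor of beta-catenin (0.04), Shq1 (0.05) and Klhdc2 (0.05), with log2 fold changes from -0.60 to -0.59. For Dach1 they were Id1, an inhibitor of bHLH factors (0.13), the binding protein gene Igfbp5 (0.15) and Eva1a (0.17), with log2 fold changes of 2.21, 2.35 and 2.23. These distances are descriptions over 6 libraries in 2 groups, and a shared difference between the groups makes up much of the likeness.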

How the data were processed

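RNA-seq was deposited by the authors as 1 table of raw read counts per gene symbol for each of 3 control and 3 Pea3 TKO samples. Per the labels, RNA was amplified with the Nugen Ovation RNA-seq System V2, and the submitters' processing notes name bcl2fastq 2.17, STAR 2.5.2b, featureCounts 1.5.0-p3, DESeq and mm10. The annotation and the strand setting are not given in the sources used here. Amplification can widen the spread between libraries, above all at low counts.

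Genes were filtered by filterByExpr of edgeR 4.0.16 (R 4.3.3), scaled by TMM and tested by the quasi-likelihood method with no covariate, and p-values were adjusted over all 13087 tested genes after Benjamini and Hochberg. Totals of 14194775 to 17860140 counts set the precision. Positions and exon lengths come from GENCODE M21 (GRCm38, the assembly of mm10), and since the authors' annotation can differ, values per kb are approximate. No libraries were duplicates (chi-square per degree of freedom within groups at least 15.5). Nothing in the sources says that samples of a group came from separate embryos, so p-values measure the spread between these samples.

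The members and lists were chosen with earlier results of these data known. The genes named are the members, the targeted genes, up to 4 called genes of each list with the smallest p, and the 3 genes most like each called member. Other list and marker genes were named after their values were seen. Alternatives were DESeq2 1.42.0, other scalings and filters, a replicate block, a Y-linked covariate, an adjusted p threshold of 0.01, leaving out each library, and a fit on the 4 libraries with Y-linked transcripts. The last was chosen after the data were seen, and its lone Pea3 TKO library is assumed to vary like the controls.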

Additional observations from a re-analysis of the deposited data

How the results depend on the processing

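Six2 stayed decreased and past the threshold in all 14 alternative settings (log2 fold change -2.12 to -1.82), and Dach1 stayed increased in all 14 (2.20 to 2.93) and past the threshold in 13. Six4 stayed decreased in all 14 (-0.65 to -0.48), but its call was lost in 5. Six5, Eya1 and Eya2 kept their direction and did not pass in any. Eya3 ranged from -0.146 (without Pea3 TKO replicate 2) upwards and changed sign in 5 settings, to 0.0039 with upper-quartile scaling, 0.0078 with the Y-linked covariate, 0.0187 in the 4 libraries with Y-linked transcripts, 0.0128 without control replicate 1 and 0.0968 without Pea3 TKO replicate 1. The 4 libraries with Y-linked transcripts, with 1 Pea3 TKO library and hence fewer samples, called 1 member, 1 gene of the network lists and 597 genes in all. The Y-linked covariate called 2 members, 3 genes of the network lists and 865 in all. A threshold of 0.01 called 2 members and 1426 genes in all. Leaving out 1 library at a time called 2 to 3 members, 8 to 9 list genes and 1948 (without control replicate 3) to 3344 genes in all, with 1963 without control replicate 2 and 2072 without Pea3 TKO replicate 2. With the replicate number as a block, 3 members, 9 list genes and 3191 genes in all were called. Same-numbered libraries deviated together at r = 0.144, -0.064 and 0.045, so the numbers were not taken to pair the samples. Six3 and Eya4 had too few counts for the test, and without the low-count filter their edgeR adjusted p was 0.84 and 0.11. Scalings moved the median log2 fold change of all genes by less than 0.1.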
